A study of Glycine max with 12 samples.

Results

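Soybean root tips treated with brassinolide (BL) were compared with mock-treated root tips. BL is the most active natural brassinosteroid, a plant steroid hormone. The comparison took its libraries by their labels, 3 of BL and 3 of mock, which are 6 of the 12 RNA-seq libraries of the study. BL seedlings had received 0.01 nM BL for 0.5 days, and mock seedlings had received neither compound. The remaining libraries were 3 of root tips given BL after propiconazole (PPZ, an inhibitor of brassinosteroid synthesis) and 3 of PPZ alone, at 0.1 μM PPZ. PPZ alone was given for 2.5 days, and in the other group PPZ was given for 2 days and BL for the 0.5 days after it by the design text, although the sample labels word that order the other way round. These libraries are used here only where the effect of BL was set beside its effect after PPZ. All groups were the apical 1 cm of the root of seedlings of the same age, germinated for 3 days and then grown in hydroponic medium. The labels name the cultivar Wm82, whereas the methods of the study name another. The labels do not say to which treatment time the mock seedlings were matched, whether BL or its epimer eBL was applied is worded differently in different places, and how many plants entered a library is not given in the sources used here. The methods call the replicates biological, without saying how cultures were separated, so the p-values measure only the spread between these libraries.

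Brassinosteroids are sensed at the cell surface by the receptor kinase BRI1 and its partner BAK1. Without hormone, the kinase BIN2 keeps the transcription factors of the BZR1 and BES1 family inactive. With hormone, BIN2 is shut off and these factors bind the promoters of genes for wall loosening, cell elongation and the synthesis of the hormone itself, which they repress. In roots a moderate level of the hormone is needed for growth, and an excess shortens the root, work shown mostly in Arabidopsis.

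Total counts per library lay between 18450894 and 24815541 over the 12 libraries. The BL libraries held 23815174, 22595555 and 18928309 counts, and the mock libraries 19900563, 18450894 and 24815541. Between 2.55% and 3.96% of the counts of a library fell on its top 10 genes, and no pair of replicates held the same counts, with at most 1.69% of genes equal. Mock replicate 1 stood apart from the other mock libraries. On the first principal component of the 6 libraries, which carried 78.7% of the variance, it lay at 41.1, against 93.5 and 99.5 for mock replicates 2 and 3 and between -82.4 and -72.7 for BL. Counts of called genes are therefore also given without it, over all genes and for some families. Tissue markers moved unevenly. The 39 chlorophyll a/b-binding genes of green tissue summed to 429 ± 64.1 CPM after BL and 241 ± 76.6 CPM in mock (SD, n = 3 each), while the 6 genes for the small subunit of Rubisco summed to 157 ± 9.07 CPM after BL and 370 ± 41.03 CPM in mock. Of these Rubisco genes 4 were tested and none was called. Their log2 fold change was above 0 in 3 and below 0 in 1, at -1.58, with a median of 0.13. The lower Rubisco sum is thus not the direction of most members. The 7 globin genes, a family that includes nodule leghemoglobin, summed to 1045 ± 182 CPM after BL and 1722 ± 232 CPM in mock. Only 2 of them were tested, and most of the sum was Glyma.11G121800, with means of 1023 CPM after BL and 1697 CPM in mock. Whether this gene is a leghemoglobin was not given in the sources used here, so the sum is not a marker of nodule cells. The part of such cells in the results was not tested. CPM are read counts scaled to library size after TMM normalization over the 12 libraries. Markers of root tip cells could not be assigned by name in the annotation used. These are bulk samples, in which fewer cells of a type and less RNA per cell cannot be told apart.

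Of 52872 annotated genes listed, 35826 had enough counts to be tested, and 2860 of these, or 7.98%, were called between BL and mock. Calls were made with the quasi-likelihood test of edgeR and needed a 3-fold difference or more together with a p, adjusted over all genes by Benjamini and Hochberg, that did not exceed 0.01. After BL, 1692 genes (4.72%) were higher and 1168 (3.26%) were lower. The median log2 fold change was 2.34 among genes called higher, -2.38 among genes called lower and 0.01 among all genes tested. In all 2860 called genes the 3 BL values lay wholly above or below the 3 mock values, which was so for 56.7% of all tested genes. The low end was sharp in places, since 116 genes called lower had at most 3 counts in every BL library and 110 called higher had at most 3 counts in every mock library. For such genes the fold is given below as a bound, computed with 3 counts in each library of the lower group. It does not cover the spread between libraries. Where a library of the lower group itself held 3 counts, it does not cover counting error in full.

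The number of called genes changed when single libraries were left out. Leaving out any library also lowers the power of the test. A fall in the number, or a call lost below, cannot be told apart from that loss of power. Without mock replicate 1 it was 4643 of 36748 genes (12.6%), with 2888 higher (7.86%) and 1755 lower (4.78%), and 2751 of the 2860 genes were among them. Without 1 of the other libraries it was 1353 (BL replicate 1), 937 (BL replicate 2), 1087 (BL replicate 3), 1212 (mock replicate 2) or 1899 (mock replicate 3). Over the 2860 called genes, mock replicate 1 lay at a median of 0.21 of the way from the mean of the other mock libraries to the BL mean. These genes were called with mock replicate 1 in the test, so genes in which it lay near BL were less likely to be among them. Over the 4643 genes called without it, the median was 0.36.

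Gene families were set by Pfam domain, 87 of them in 9 roles, and their called shares stand beside 7.98% called, 4.72% higher and 3.26% lower for all genes. Kinesins, replication initiation genes and histones were left out of the list. Families differed widely in how many members were called and in which direction. Cyclins, sulfate transporters and pectate lyases had called members only on the higher side, and EXORDIUM-like proteins and malate channels only on the lower side. This did not hold throughout without mock replicate 1. Sulfate transporters then had 12 called higher and 1 lower, and EXORDIUM-like proteins 1 higher and 6 lower. Kunitz protease inhibitors had the largest called share of the families with 10 or more tested members, at 66.7%.

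**Figure D1:**
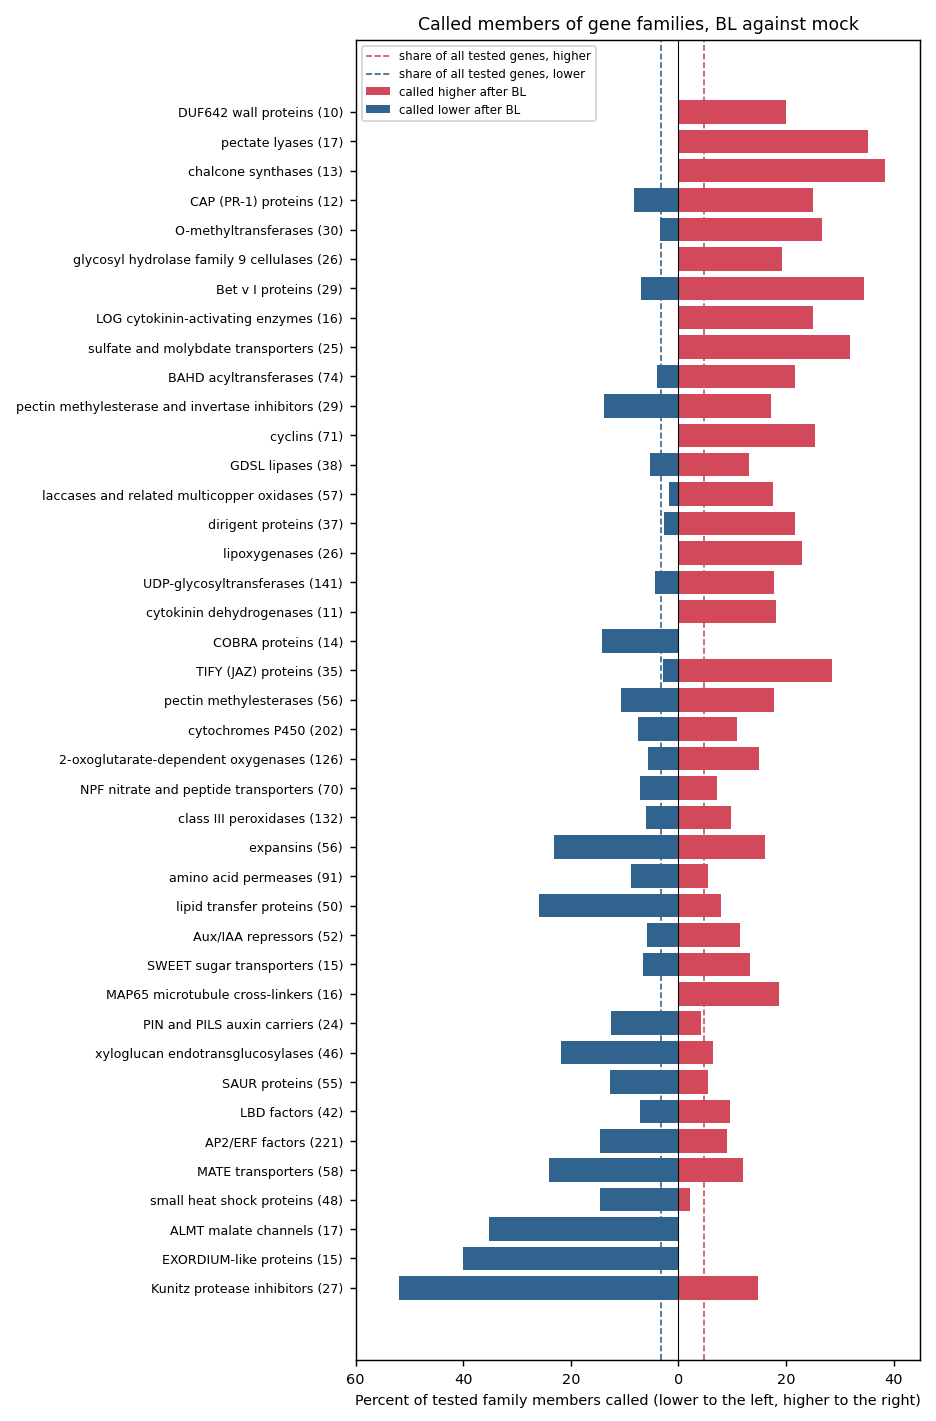
Percent of tested members called lower (bars to the left, blue) and higher (bars to the right, red) after BL against mock, for the 41 families with at least 10 tested members and at least 14% called, ordered by their median log2 fold change; the number of tested members is in parentheses. Dashed lines mark the 3.26% of all tested genes called lower and the 4.72% called higher, and Kunitz protease inhibitors at the bottom reach 66.7% in all.

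The brassinosteroid signalling genes that could be named, BRI1A, BRI1B, BIN2 and the BES1/BZR1 family, were not called between BL and mock. BRI1A (Glyma.06G147600, chromosome 6), a soybean gene for the receptor, had 44.8, 41.3 and 41.3 CPM after BL against 65.2, 58.9 and 58.0 CPM in mock. The groups did not overlap, but the difference was 1.42-fold (log2 -0.51 ± 0.10 SE, edgeR adjusted p = 8.55e-03) and under the fold threshold. BRI1B (Glyma.04G218300) was also not called, with 54.7, 48.3 and 51.6 CPM after BL against 68.2, 64.9 and 60.4 CPM in mock. The kinase gene BIN2 (Glyma.13G228100), the negative regulator of the pathway, had 45.1, 45.6 and 44.5 CPM after BL and 51.0, 35.4 and 44.6 CPM in mock, and the groups overlapped (log2 0.05 ± 0.14 SE). None of the 14 tested genes of the BES1/BZR1 family was called, and their log2 fold changes lay between -0.59 and 0.65. Their summed level was 333 ± 9.33 CPM after BL and 334 ± 26.2 CPM in mock (SD, n = 3 each). BES1-10 (Glyma.12G231400), the member with the smallest p, had 23.6, 24.1 and 28.0 CPM after BL against 20.6, 17.2 and 14.7 CPM in mock, a 1.45-fold difference (edgeR adjusted p = 0.0280).

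EXORDIUM-like genes and 1 gene of a family in hormone synthesis were called. EXORDIUM-like proteins are extracellular proteins that in Arabidopsis take part in brassinosteroid-promoted growth, where EXORDIUM is a gene raised by the hormone. Here 6 of 15 tested members were called, all 6 lower after BL. The log2 fold change was below 0 in 9 members and above 0 in 6, up to 2.78. With mock replicate 1 left out, 6 were called lower and 1 higher. The family summed to 573 ± 44.9 CPM after BL and 1878 ± 485 CPM in mock (SD, n = 3 each). Glyma.04G100400 (chromosome 4, 9201457 to 9202747) had 114, 96.3 and 96.5 CPM after BL against 378, 580 and 474 CPM in mock. Every BL library was below every mock library, by 4.64-fold on average (log2 -2.21 ± 0.19 SE, edgeR adjusted p = 7.41e-04), and the call held without each library in turn. Steroid 5-alpha-reductases include DET2, an enzyme of brassinosteroid synthesis in Arabidopsis, and 1 of 8 tested members was called. Glyma.02G273300 had 16.4, 14.5 and 15.7 CPM after BL against 7.58, 3.72 and 3.14 CPM in mock, 3.25-fold higher (edgeR adjusted p = 6.35e-03). Its call was lost without any of the libraries except mock replicate 1, with adjusted p between 0.0138 and 0.0284, and without mock replicate 1 the log2 fold change was 2.18.

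Cytochromes P450, the enzyme class that holds most steps of brassinosteroid synthesis and inactivation among many other pathways, had 22 members called higher and 15 lower of 202 tested. Glyma.12G087200 had 31.3, 40.4 and 33.8 CPM after BL against 2.59, 3.98 and 3.59 CPM in mock. It was 10.4-fold higher (log2 3.38 ± 0.19 SE, edgeR adjusted p = 2.22e-04) and the groups did not overlap. Glyma.07G010700 ran the other way, with 6.22, 7.00 and 4.74 CPM after BL and 44.4, 75.7 and 71.0 CPM in mock (log2 -3.40 ± 0.25 SE, edgeR adjusted p = 5.05e-04). Which of the P450 genes act on brassinosteroids was not given in the sources used here. The P450 gene with the largest fitted increase, Glyma.02G156100, had 1.504, 8.87 and 11.5 CPM after BL and no counts in mock, at least 50.6-fold higher. BL replicate 1 lay well under the other BL libraries, and the call was lost without BL replicate 2 (edgeR adjusted p = 0.0279), BL replicate 3 (0.0230), mock replicate 2 (0.0213) or mock replicate 3 (0.0172).

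Genes of other hormones were called in both directions, with jasmonate regulators mostly on the higher side. TIFY proteins include the JAZ repressors, which hold back jasmonate responses and whose genes are themselves switched on by jasmonate. Of 35 tested, 10 were called higher and 1 lower, a share of 31.4%. Glyma.01G204400 had 23.7, 30.1 and 34.4 CPM after BL against 1.42, 2.52 and 1.10 CPM in mock, 17.7-fold higher (log2 4.15 ± 0.31 SE, edgeR adjusted p = 5.17e-04). All BL libraries were far above mock. Lipoxygenases, the class of enzymes that begins jasmonate synthesis and also makes other oxylipins, had 6 of 26 members called, all 6 higher. With mock replicate 1 left out, 7 were called higher and 1 lower. LOXB1 (Glyma.13G347700) had the highest CPM after BL of the genes called higher, not corrected for gene length, with 2195, 1973 and 1784 CPM after BL against 789, 252 and 473 CPM in mock. It was 3.96-fold higher (edgeR adjusted p = 7.33e-03), and its call was lost without any single library other than mock replicate 1, with adjusted p between 0.0125 and 0.0268.

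Auxin and cytokinin genes gave no common direction. Among Aux/IAA repressors of auxin signalling, 6 of 52 were called higher and 3 lower. Of 53 auxin response factors, the transcription factors they repress, 1 was called, lower. SAUR genes, early auxin-responsive genes of which some promote elongation, had 3 of 55 called higher and 7 lower, and PIN and PILS auxin carriers had 1 of 24 higher and 3 lower. None of the 13 tested GH3 genes, whose products conjugate auxin or jasmonate to amino acids, was called. LOG enzymes, which release active cytokinin, had 4 of 16 called, all higher, with a family median log2 fold change of 1.02. Cytokinin dehydrogenases, which degrade cytokinin, had 2 of 11 called, both higher, and response regulators had 1 of 79 higher and 4 lower. The response regulators, which carry the cytokinin signal among other roles, were thus near the share for all genes, at 6.33%. Among 142 type 2C phosphatases, some of which repress abscisic acid signalling, 4 were called higher and 2 lower. The lowered Glyma.01G225100 had 0.325, 0.552 and 0.0521 CPM after BL against 21.1, 14.6 and 24.4 CPM in mock, 60.6-fold lower (log2 -5.92 ± 0.48 SE, edgeR adjusted p = 5.97e-04). The 2-oxoglutarate-dependent oxygenases, which include enzymes of gibberellin and ethylene metabolism, had 19 of 126 called higher and 7 lower. Glyma.10G063000 had 15.6, 16.9 and 16.2 CPM after BL against 0.661, 0.524 and 0.817 CPM in mock, 24.0-fold higher (edgeR adjusted p = 1.04e-04). Glyma.08G029200 had 7.52, 6.20 and 5.94 CPM after BL against 47.9, 57.7 and 55.0 CPM in mock, 8.11-fold lower (edgeR adjusted p = 1.35e-04).

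Cell wall genes were called at 22.2% of 383 tested members, 48 higher and 37 lower. Pectate lyases and family 9 cellulases had called members on the higher side alone, and the wall-loosening expansins and xyloglucan endotransglucosylases held most of the lowered genes. Expansins, which loosen the wall at acid pH, had 9 of 56 called higher and 13 lower. Their median log2 fold change was 0.23, so the typical member did not share the direction of the summed level, which was 1362 ± 46.6 CPM after BL and 5370 ± 959 CPM in mock (SD, n = 3 each). Much of that sum was Glyma.17G147400, described further on with its neighbours. Glyma.10G140200 (chromosome 10, 37517343 to 37518967) had 1.14, 1.61 and 1.15 CPM after BL against 31.6, 30.9 and 34.9 CPM in mock. It was 24.7-fold lower (log2 -4.63 ± 0.17 SE, edgeR adjusted p = 8.93e-05), and the replicates of each group lay close together. Xyloglucan endotransglucosylases, which cut and rejoin the xyloglucans that tether cellulose, had 3 of 46 called higher and 10 lower.

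DUF642 proteins are wall-bound proteins that in Arabidopsis interact with pectin methylesterases. Glyma.06G070900 (chromosome 6, 5395193 to 5397844) had 45.2, 40.6 and 46.2 CPM after BL, against 0.102, 0.000 and 0.0408 CPM in mock. It was at least 305-fold higher (edgeR adjusted p = 8.05e-05) and was called without each library in turn. Its neighbour Glyma.06G071000, chosen after its values were seen, had 46.0, 40.0 and 38.0 CPM after BL and 0.204, 0.000 and 0.0817 CPM in mock. These were the 2 called members of 10 tested, and without mock replicate 1 there were 7.

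Pectate lyases, which cleave pectin, had 6 of 17 members called, all higher, with a median of 1.56 on the log2 scale. Family 9 cellulases had 5 of 26 called, all higher, with a median of 1.22. Cellulose synthases had 3 of 38 called, all higher, and COBRA proteins, which guide cellulose deposition, had 2 of 14 called, both lower. With mock replicate 1 left out, cellulose synthases had 5 called higher and 1 lower, and COBRA proteins 1 higher and 2 lower. Pectin methylesterases had 10 of 56 higher and 6 lower, and their inhibitors 5 of 29 higher and 4 lower. The methylesterase gene Glyma.03G029100 had at most 1 count in any BL library and 13.4, 10.6 and 20.6 CPM in mock, at least 110-fold lower (edgeR adjusted p = 2.64e-04). Polygalacturonases, which also cleave pectin, had 3 of 48 called higher and 2 lower. Among the higher was Glyma.13G364700, which had 21.3, 18.5 and 17.5 CPM after BL against 0.712, 1.21 and 1.43 CPM in mock (log2 4.09 ± 0.25 SE, edgeR adjusted p = 2.68e-04). Ole e 1-like proteins, secreted proteins named after an olive pollen allergen, had 1 of 16 called, higher, although their summed level was 6857, 5237 and 6114 CPM after BL and 4386, 1950 and 1476 CPM in mock. The groups did not overlap in the sum, and mock replicate 1 lay between the BL libraries and the other mock libraries.

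**Figure D2:**
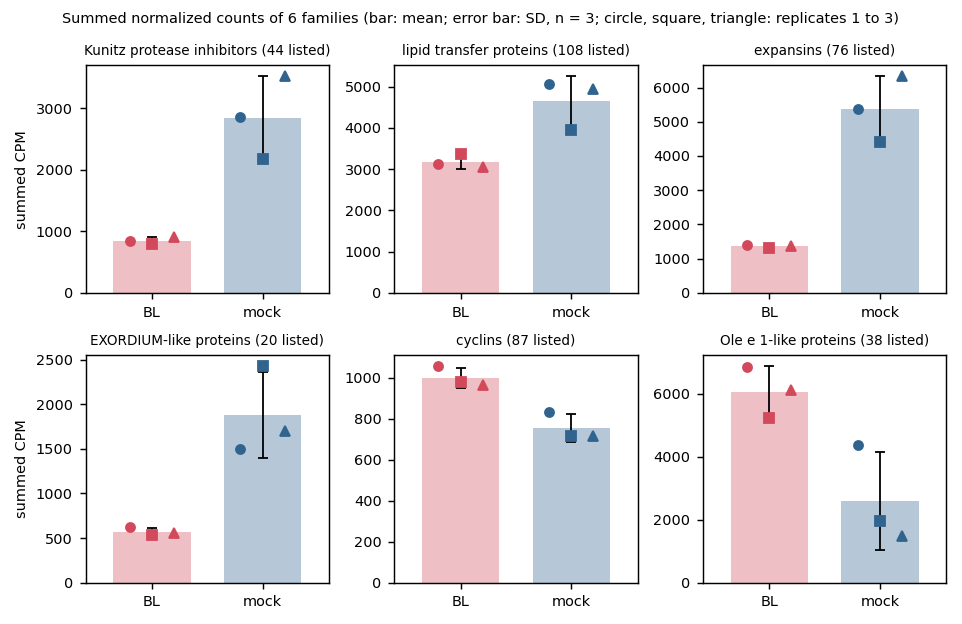
Summed CPM over all listed members of 6 families in each BL library (red) and mock library (blue), with the mean as a bar and its SD over 3 libraries; circles, squares and triangles are replicates 1, 2 and 3. Expansins summed to 1362 CPM after BL and 5370 CPM in mock, and EXORDIUM-like proteins to 573 CPM after BL and 1878 CPM in mock.

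Several families held neighbouring genes that were called in the same direction. The 90 families, tissue markers included, were searched for runs of members whose starts lay within 50 kb of the next, a search chosen after the values were seen. It found 58 runs with at least 4 tested members, of which 28 held no called gene. In 5 runs at least 4 members were called and all were lower after BL, and in 1 run at least 4 were called and all were higher.

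The largest lowered run was of Kunitz protease inhibitors on chromosome 9, secreted or vacuolar proteins that block digestive enzymes of herbivores and pathogens. It spanned 130 kb, from Glyma.09G162500 to Glyma.09G163900, with 11 tested members, 10 of them called and all 10 lower. Summed over the run, the level was 63.2 ± 13.7 CPM after BL and 1765 ± 380 CPM in mock (SD, n = 3 each). Glyma.09G163300 (39685229 to 39686168) had 0.000, 0.000 and 0.0521 CPM after BL against 74.9, 72.6 and 127 CPM in mock, at least 678-fold lower (edgeR adjusted p = 1.04e-04). Glyma.09G163000 had no counts after BL and 10.6, 32.7 and 121 CPM in mock, at least 406-fold lower. Its mock libraries were spread over more than a factor of 10, and its call (edgeR adjusted p = 7.08e-03) was lost without BL replicate 1 (0.0195), BL replicate 2 (0.0221), BL replicate 3 (0.0207) or mock replicate 2 (0.0214). Glyma.09G163800, chosen after its values were seen, had 9.47, 5.90 and 6.25 CPM after BL against 1416, 770 and 832 CPM in mock, 138-fold lower (edgeR adjusted p = 1.87e-04). The last gene of the run, Glyma.09G163900, was not called, with 10.9, 17.2 and 20.4 CPM after BL and 11.7, 10.4 and 11.2 CPM in mock. Over the whole Kunitz family 14 of 27 tested members were called lower and 4 higher. Glyma.12G234800 was among the higher ones, with 13.5, 13.3 and 17.8 CPM after BL against 0.356, 0.419 and 0.327 CPM in mock, 40.3-fold higher (log2 5.33 ± 0.23 SE, edgeR adjusted p = 1.04e-04).

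A run of lipid transfer protein genes on chromosome 18, small secreted proteins that carry lipids to the cell surface, was also lowered. All 8 tested members between Glyma.18G032300 and Glyma.18G033200 were called lower, and the run of 43.2 kb summed to 3.28 ± 0.543 CPM after BL and 1118 ± 669 CPM in mock (SD, n = 3 each). Glyma.18G033200 (2538709 to 2539426) had 1.22, 1.49 and 1.25 CPM after BL against 422, 268 and 460 CPM in mock, 287-fold lower (log2 -8.17 ± 0.29 SE, edgeR adjusted p = 8.41e-05). Glyma.18G032700 had no counts after BL and 29.7, 37.2 and 129 CPM in mock, at least 482-fold lower. Its call (edgeR adjusted p = 2.67e-03) was lost without BL replicate 2 (0.0113) or BL replicate 3 (0.0105). In the family as a whole 13 of 50 tested members were called lower and 4 higher.

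The other 3 lowered runs held genes for wall proteins. All 5 xyloglucan endotransglucosylase genes from Glyma.13G094900 to Glyma.13G095300 were called lower, with 103 ± 26.7 CPM in sum after BL and 553 ± 193 CPM in mock (SD, n = 3 each), and 4 of the 6 from Glyma.17G064900 to Glyma.17G065400 were. Of 5 expansin genes from Glyma.17G146900 to Glyma.17G147600, 4 were called lower. Among them was Glyma.17G147400, also chosen after its values were seen, with 57.7, 67.6 and 74.9 CPM after BL against 2868, 2324 and 3608 CPM in mock, 43.7-fold lower (log2 -5.45 ± 0.25 SE, edgeR adjusted p = 1.04e-04). The higher run was of MYB-type factors on chromosome 6, where 4 of 5 tested genes were called. Glyma.06G300100, a member of it, had 12.96, 20.4 and 22.6 CPM after BL against 1.48, 1.94 and 1.10 CPM in mock, 12.5-fold higher (edgeR adjusted p = 6.30e-04). Genes of such runs are often near-identical copies, and how reads that match several copies were counted is not given in the sources used here, so the share of each copy is uncertain.

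Families that include genes for lignin and for barriers in the wall leaned to the higher side, with 32 of 280 called higher and 13 lower. Dirigent proteins, which steer the coupling of lignin and lignan precursors, had 8 of 37 called higher and 1 lower. Glyma.11G150300 had 71.2, 52.9 and 54.2 CPM after BL against 14.4, 11.6 and 13.3 CPM in mock, 4.57-fold higher (edgeR adjusted p = 5.00e-04). Laccases and related multicopper oxidases, some of which polymerize lignin, had 10 of 57 called higher and 1 lower. Class III peroxidases had 13 of 132 called higher and 8 lower. Glyma.14G053700 had 17.7, 14.3 and 17.6 CPM after BL against 0.153, 0.0524 and 0.204 CPM in mock, 113-fold higher (log2 6.82 ± 0.31 SE, edgeR adjusted p = 1.04e-04), and its groups were far apart. Its mock libraries held 3, 1 and 5 counts, so the size of the fold rests on few reads. Glyma.09G022500 was among the 3 genes called higher with the highest CPM after BL, with 894, 735 and 945 CPM against 352, 132 and 150 CPM in mock, 4.08-fold higher (edgeR adjusted p = 6.34e-03). Its call was lost without any single library other than mock replicate 1, with adjusted p between 0.0192 and 0.0259. Glyma.17G061400 ran the other way, with 47.6, 34.0 and 42.4 CPM after BL against 290, 242 and 271 CPM in mock, 6.43-fold lower (edgeR adjusted p = 2.73e-04). Of 54 CASP and CASP-like proteins, some of which build the Casparian strip of the endodermis, 1 was called higher and 3 lower. Glyma.17G064800 had 12.9, 9.63 and 9.53 CPM after BL against 65.3, 58.1 and 54.5 CPM in mock, 5.51-fold lower (edgeR adjusted p = 3.38e-04). Without mock replicate 1, 10 CASP-like genes were called higher and 3 lower.

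Cell division genes other than kinesins, replication initiation genes and histones were called at 24 of 127, all 24 higher. Cyclins, which drive the steps of the cell cycle, had 18 of 71 called, with a family median of 0.70 and a sum of 1001 ± 49.6 CPM after BL and 754 ± 67.4 CPM in mock (SD, n = 3 each). Glyma.13G031500 had 8.62, 7.38 and 8.18 CPM after BL against 1.48, 1.15 and 1.10 CPM in mock, 6.51-fold higher (edgeR adjusted p = 4.83e-04). Both tested genes of PCNA, the sliding clamp of DNA polymerase, were called higher. Glyma.08G334900 had 52.6, 43.5 and 44.4 CPM after BL against 14.8, 8.28 and 10.9 CPM in mock, 4.16-fold higher (edgeR adjusted p = 1.12e-03). MAP65 proteins, which cross-link microtubules, had 3 of 16 called, all higher. Of 38 tubulin genes 1 was called, although 34 had a log2 fold change above 0. Tubulins summed to 5198, 4326 and 4733 CPM after BL and 4523, 2462 and 1968 CPM in mock, so that the groups overlapped only through mock replicate 1, and 9 members were called higher without it.

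Transcription factors were called in nearly equal numbers, 85 higher and 82 lower of 1571 tested. AP2/ERF factors, which include the ethylene response factors, made up 52 of these, 20 higher and 32 lower of 221 tested. Glyma.19G213100 (chromosome 19, 47184840 to 47186240) had 38.5, 36.3 and 24.0 CPM after BL against 400, 555 and 648 CPM in mock, 16.1-fold lower (log2 -4.01 ± 0.27 SE, edgeR adjusted p = 3.71e-04). The MYB-type factors had 16 of 333 called higher and 11 lower, close to the share for all genes. The lowered Glyma.14G093800 had 0.894, 0.891 and 0.625 CPM after BL against 29.2, 38.7 and 38.1 CPM in mock, 43.0-fold lower (log2 -5.43 ± 0.21 SE, edgeR adjusted p = 8.93e-05). The bHLH factors had 14 of 172 called higher and 7 lower. Glyma.08G152500 had 75.1, 98.5 and 113 CPM after BL against 18.6, 15.3 and 21.2 CPM in mock, 5.22-fold higher (edgeR adjusted p = 5.90e-04). WRKY factors, known from defence, had 9 of 141 called higher and 2 lower, and NAC factors 6 of 130 higher and 5 lower. LBD factors, which include regulators of lateral root initiation, had 4 of 42 higher and 3 lower. GRAS factors had 3 of 90 higher and 7 lower, MADS-box factors 0 of 30 higher and 3 lower, and bZIP factors 2 of 110 in each direction.

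Defence genes and receptors split by class. Bet v I proteins, a pathogenesis-related family, had 10 of 29 called higher and 2 lower. Glyma.15G274200 had 44.5, 48.3 and 39.1 CPM after BL against 12.2, 14.2 and 16.5 CPM in mock, 3.10-fold higher (edgeR adjusted p = 7.97e-04). The fold was close to the threshold and fell short of it without BL replicate 2 (log2 1.57) or mock replicate 1 (log2 1.52). Family 17 glucanases had 7 of 66 called, all higher, and 11 higher and 1 lower without mock replicate 1. CAP proteins of the PR-1 type had 3 of 12 higher and 1 lower. Intracellular immune receptors leaned the other way. Of 204 NB-ARC receptors without a TIR domain, 10 were called, all lower, a share of 4.90% that was under the 7.98% for all genes. Yet 158 had a log2 fold change below 0 and the median was -0.59, against 0.01 for all genes. With mock replicate 1 left out, 19 of these receptors were called lower and 1 higher. TIR-domain receptors had 2 of 127 called higher and 3 lower (3.94% in all) with a median of -0.23. With mock replicate 1 left out, 6 of them were called higher and 4 lower. Malectin-like receptor kinases, a separate class, had 5 of 60 called, all lower, a share of 8.33% and near that for all genes. Their median was -0.07, with 34 below 0 and 26 above. With mock replicate 1 left out, 6 of these kinases were called lower and 1 higher. Small heat shock proteins, chaperones induced by heat and other stresses, had 1 of 48 called higher and 7 lower, with a median of -0.66.

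Families grouped under metabolism, among them enzymes of secondary metabolism, were called at 98 of 496 members, 75 higher and 23 lower. This group also counts 2 families described above. They are the small heat shock proteins, which are not enzymes, with 1 higher and 7 lower, and the lipoxygenases, with 6 higher. UDP-glycosyltransferases, which attach sugars to hormones, flavonoids and saponins, had 25 of 141 called higher and 6 lower. SG-4 (Glyma.01G046300) had 9.84, 6.07 and 6.20 CPM after BL against 0.153, 0.0524 and 0.123 CPM in mock (edgeR adjusted p = 3.64e-04). It was 51.1-fold higher with 3 counts set in each mock library. Those libraries held 3, 1 and 3 counts, so this is not a lower limit. Glyma.13G056600 had 4.71, 5.22 and 5.52 CPM after BL against 26.2, 26.6 and 30.5 CPM in mock, 5.36-fold lower (edgeR adjusted p = 1.80e-04). O-methyltransferases had 8 of 30 called higher and 1 lower. Glyma.20G213500 had 16.95, 22.6 and 24.7 CPM after BL against 0.204, 0.157 and 0.000 CPM in mock, 183-fold higher (log2 7.52 ± 0.49 SE, edgeR adjusted p = 3.25e-04). Its mock libraries held 4, 3 and 0 counts, so the size of the fold rests on few reads. Chalcone synthases, the entry to flavonoids and isoflavonoids, had 5 of 13 called, all higher, but the sum of the family was 1342 ± 127 CPM after BL and 1339 ± 308 CPM in mock (SD, n = 3 each). None of the 10 phenylalanine ammonia-lyases, the entry to phenylpropanoids, was called. BAHD acyltransferases had 16 of 74 called higher and 3 lower. GDSL lipases had 5 of 38 higher and 2 lower, and the lowered Glyma.19G262900 had 2.80, 4.37 and 5.78 CPM after BL against 42.4, 28.4 and 27.6 CPM in mock, 7.61-fold lower (edgeR adjusted p = 1.03e-03).

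Transporters of different substrates moved in different directions. Sulfate and molybdate transporters, taken as 1 family, had 8 of 25 called, all higher, with a median of 0.89, and 12 higher and 1 lower without mock replicate 1. Without the fold threshold, 8 members were called higher and 3 lower. Whether a molybdate transporter was among the genes called higher was not tested. The paper reports that its molybdate transporter gene GmMOT1 was lowered by BL. Aluminium-activated malate channels (ALMT), which release malate from roots and move it into vacuoles, had 6 of 17 called, all lower, and summed to 51.4 ± 3.05 CPM after BL and 155 ± 50.1 CPM in mock (SD, n = 3 each). MATE transporters, which export citrate, flavonoids and other compounds, had 7 of 58 called higher and 14 lower. The higher Glyma.13G203000 (chromosome 13, 31089805 to 31096219) had 129, 121 and 156 CPM after BL against 0.204, 0.524 and 1.06 CPM in mock, 217-fold higher (log2 7.76 ± 0.42 SE, edgeR adjusted p = 1.88e-04). Sugar and phosphate transporters had 3 of 92 higher and 5 lower. Among the lower was PHT1-14 (Glyma.02G005800), a phosphate transporter gene, with 12.2, 9.93 and 11.7 CPM after BL against 81.0, 105 and 110 CPM in mock, 8.69-fold lower (log2 -3.12 ± 0.16 SE, edgeR adjusted p = 1.74e-04). Glyma.09G087400 of the same superfamily had 18.7, 18.6 and 17.9 CPM after BL against 3.51, 2.67 and 3.02 CPM in mock, 6.03-fold higher (edgeR adjusted p = 2.22e-04). Amino acid permeases had 5 of 91 higher and 8 lower, and Glyma.10G109500 had 29.1, 29.0 and 26.9 CPM after BL against 156, 142 and 162 CPM in mock, 5.38-fold lower (edgeR adjusted p = 1.04e-04). Potassium transporters of the KUP type had 1 of 28 called, lower, ZIP metal transporters 3 of 22, all lower, and none of the 15 NRAMP metal transporters was called. With mock replicate 1 left out, ZIP transporters had 3 called higher and 6 lower. Aquaporins had 3 of 48 higher and 1 lower, and 12 higher and 1 lower without mock replicate 1.

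The 3 genes called lower with the highest CPM in mock, not corrected for gene length, were genes for enzymes of carbohydrate use. Alcohol dehydrogenase turns acetaldehyde into ethanol at the end of fermentation. Glyma.06G122600, of this class, had 979, 1085 and 981 CPM after BL against 3569, 5332 and 6374 CPM in mock, 4.99-fold lower (edgeR adjusted p = 1.20e-03), and was not called without BL replicate 3 (0.0105). ADH2 (Glyma.04G240800) had 285, 298 and 240 CPM after BL against 2031, 3120 and 3992 CPM in mock (log2 -3.46 ± 0.29 SE, edgeR adjusted p = 6.55e-04). Sucrose synthase splits sucrose for use in respiration and wall synthesis, and its gene Glyma.09G073600 had 463, 616 and 721 CPM after BL against 2224, 3222 and 3577 CPM in mock, 4.99-fold lower (edgeR adjusted p = 1.27e-03). This call was lost without BL replicate 2 (0.0104). Among the genes called higher with the highest CPM, the NADPH-dependent FMN reductase gene Glyma.13G249600 had 689, 750 and 829 CPM after BL against 256, 159 and 233 CPM in mock, 3.52-fold higher (edgeR adjusted p = 1.27e-03). The remaining genes with extreme changes were Glyma.14G151600 and Glyma.08G231600, a transporter of the EamA type and a beta-lactamase-fold protein, which had no counts after BL and were at least 301-fold and at least 290-fold lower, and Glyma.19G002400 and Glyma.14G165000, a C26 peptidase and a molybdopterin oxidoreductase of the nitrate reductase type, which had no counts in mock and were at least 27.9-fold and at least 24.2-fold higher. These 4 were called without each library in turn.

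**Figure D3:**
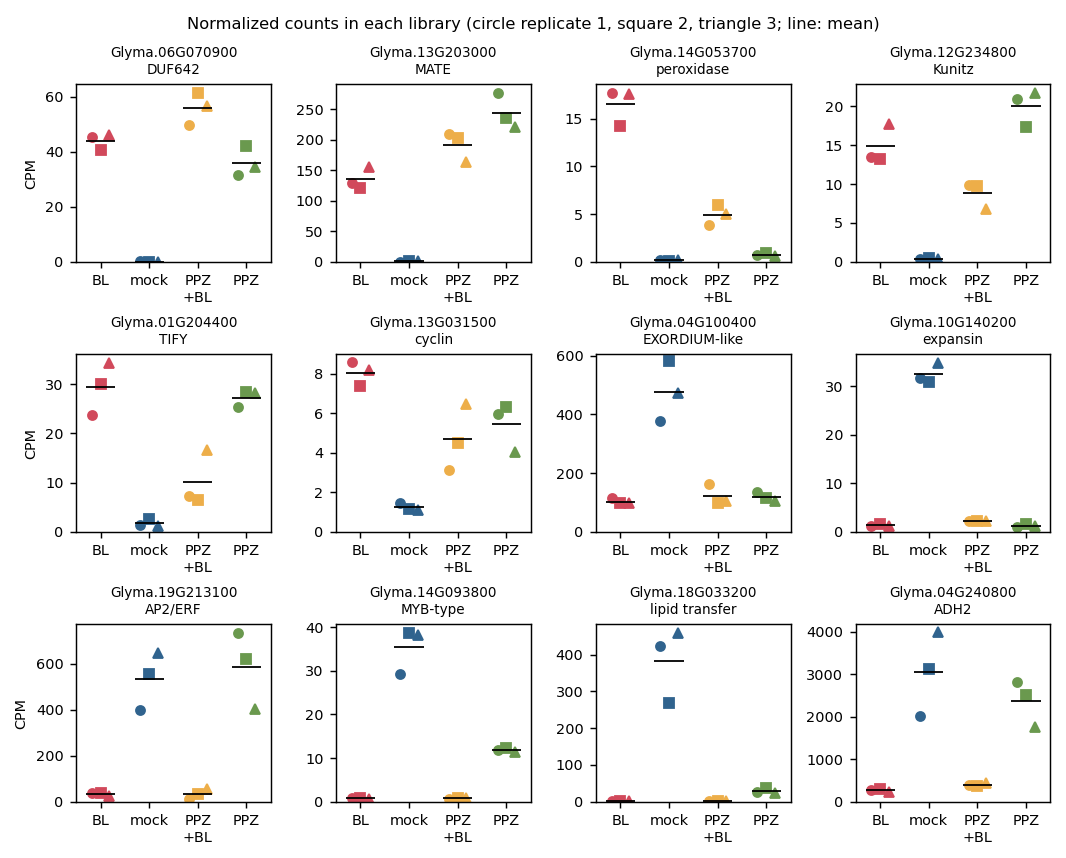
CPM in every library for 12 of the genes described above, with BL left of mock and PPZ plus BL left of PPZ; circles, squares and triangles are replicates 1, 2 and 3 and lines are group means. Mock stands apart from BL in each panel. PPZ lies with or nearer to BL for DUF642, MATE, Kunitz, TIFY, cyclin, EXORDIUM-like and expansin. It lies with or nearer to mock for peroxidase, AP2/ERF and ADH2. For the MYB-type and lipid transfer genes it lies between the groups, on the side of BL.

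A last comparison set the effect of BL beside that in root tips that had also received PPZ. PPZ plus BL against PPZ uses none of the 6 libraries above. By the design text PPZ was given for 2 days before BL in the PPZ plus BL group and for 2.5 days in the PPZ group, so BL and the time on PPZ cannot be told apart in this comparison or in the interaction. In it 2766 of 35792 genes were called (7.73%), 770 higher (2.15%) and 1996 lower (5.58%). Of the 1652 genes called higher after BL and tested in both comparisons, 103 were called higher and 70 lower there, with a median log2 fold change of 2.32 for BL against mock and 0.25 for PPZ plus BL against PPZ. Of the 961 genes called lower, 382 were called lower and 22 higher, with medians of -2.24 for BL against mock and -1.18 for PPZ plus BL against PPZ. Over all 34961 genes tested in both, 746 were called higher and 1743 lower in PPZ plus BL against PPZ. The difference of the effects was tested as an interaction over the 12 libraries at an adjusted p of 0.05, and 34.3% of 37123 genes passed. Over the genes tested in both comparisons it was 83.2% of those called higher after BL, 57.9% of those called lower and 34.8% of all. The rule that chose these genes used the BL and mock libraries, which also enter the interaction, so these shares are a description.

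**Figure D4:**
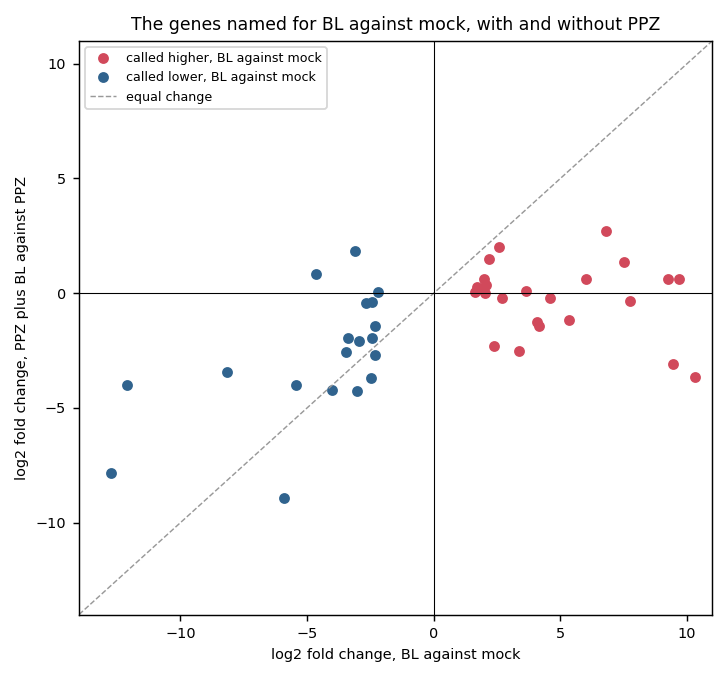
Log2 fold change for BL against mock (horizontal) and for PPZ plus BL against PPZ (vertical) of the 43 named and called genes tested in both; the dashed line marks equal change. Of the 19 genes called lower (blue) 16 lie below 0 on the vertical axis, and of the 24 called higher (red) 14 lie above 0.

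Families differed in this respect. AP2/ERF factors had 15 members called in both comparisons, of which 14 were lower in both and 1 higher in both. Of 8 expansins and 5 lipid transfer protein genes called in both, all were lower in both, and of 9 Kunitz inhibitors 8 were. The 4 chlorophyll a/b-binding genes called higher after BL were also called higher in PPZ plus BL against PPZ, where 14 members of that family were called higher. Of the TIFY genes 3 were called in both comparisons, all 3 in opposite directions, and 9 were called lower in PPZ plus BL against PPZ. Opposite directions were also found for 3 of 3 chalcone synthases called in both, 5 of 11 2-oxoglutarate-dependent oxygenases and 4 of 9 cytochromes P450, against 92 of 577 over all genes called in both. Levels in the PPZ groups show how single genes fell out. The MATE gene Glyma.13G203000 averaged 192 CPM in PPZ plus BL and 245 CPM in PPZ, near its level after BL. The AP2/ERF gene Glyma.19G213100 averaged 32.4 CPM in PPZ plus BL and 587 CPM in PPZ, a difference about as large as that between BL and mock (interaction log2 0.16, edgeR adjusted p = 0.868).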

How the data were processed

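RNA was measured in 12 libraries of soybean root tips, of which the 6 of BL and mock form the main comparison. Per the submitters' processing notes, the authors aligned the reads with HISAT2 2.0.5 and counted them per gene with featureCounts 1.5.0-p3. The deposited counts are whole reads per gene without normalization. How multi-mapping reads were counted is not given in the sources used here. FPKM values (12 columns) were deposited too, as were fold changes and p-values of the authors' own DESeq2 comparisons, none of which were used. Gene positions and Pfam domains are those of the deposited table (Wm82.a4.v1). RefSeq symbols (assembly Glycine_max_v4.0) were matched by position, with an overlap of at least 0.8 of the longer gene, for 33786 of 47068 protein-coding genes, and 1980 of those carry a symbol. No product names, promoters or protein sequences were used here.

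Testing used edgeR 4.0.16 in R 4.3.3 (filterByExpr, TMM, then glmQLFit and glmQLFTest) on the 6 libraries. A call needed a fold of 3 or more and a p of at most 0.01 after Benjamini-Hochberg adjustment. The interaction with PPZ was fitted over 12 libraries at an adjusted p of 0.05. Standard errors were taken from the log2 fold change and the F statistic. Folds against groups with at most 3 counts per library were computed with 3 counts.

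The families, gene lists and rules were chosen with earlier results of these data known. Named genes were the 4 largest increases and 4 largest decreases among called genes with a Pfam domain, no overlap between groups and 10 or more counts throughout the higher group, the 2 with the smallest p per role and direction (at most 1 per family), the 3 with the highest CPM per direction, the member with the smallest p of 3 brassinosteroid families, and genes with brassinosteroid symbols in RefSeq, in all 53. Genes outside this rule are said to be chosen after their values were seen. Tandem runs were members of a family whose starts lay within 50 kb of the next.

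The samples were treated as unpaired. Correlations of same-numbered deviations were 0.14, 0.10 and 0.04, and those between different numbers lay from -0.31 to 0.31. Deviations from a mean of 3 libraries are bound to each other, so these values cannot exclude a pairing. The alternatives changed the tool (DESeq2 1.42.0), the scaling (median-ratio factors or library size), the filter (none, or a mean of at least 50 counts), the libraries (all 12 in 1 fit, or each left out in turn), the replicate block or the fold threshold. On simulated data in which 200 genes had a log2 change of 2 in size, the test for BL against mock recovered 132 of them (66%) with 0 false calls among 36053 genes, and DESeq2 recovered 162 with 15 false calls among 36463 genes. The simulated counts were drawn for each gene on its own from a negative binomial model, which both tools use. No library was displaced as mock replicate 1 was, so these figures do not give the rate of false calls in the real data. Summaries used pandas 2.3.3 and NumPy 2.4.6 under Python 3.11.15, and plots Matplotlib 3.10.9.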

Additional observations from a re-analysis of the deposited data

Results flagged for a closer look

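For 38 of the 53 named genes the effect of BL differed between root tips without and with PPZ, by the interaction in edgeR's quasi-likelihood test over 12 libraries at an adjusted p of 0.05. The values below are the log2 effect of BL without PPZ minus that with PPZ. They depend on the prior count for genes that are at or near 0 in a group. Over all genes tested 34.3% passed the same test. The groups with PPZ also differ in how long PPZ was given, which cannot be told apart from the effect of BL there.

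Among genes with no or nearly no counts in mock, the difference was 13.88 for the P450 gene Glyma.02G156100, 12.49 for the peptidase gene Glyma.19G002400, 9.05 for the DUF642 gene Glyma.06G070900, 8.56 for the oxidoreductase gene Glyma.14G165000 and 5.37 for SG-4 (Glyma.01G046300). In each of these the PPZ libraries held counts as well, with means of 8.21, 26.5, 36.1, 2.79 and 0.908 CPM. Among other genes called higher it was 8.10 for the MATE gene Glyma.13G203000, 6.49 for the Kunitz gene Glyma.12G234800, 6.11 for the O-methyltransferase gene Glyma.20G213500, 5.87 for the P450 gene Glyma.12G087200, 5.58 for the TIFY gene Glyma.01G204400, 5.32 for the polygalacturonase gene Glyma.13G364700, 4.76 for the oxygenase gene Glyma.10G063000, 4.65 for the bHLH gene Glyma.08G152500, 4.10 for the peroxidase gene Glyma.14G053700 and 3.54 for the MYB-type gene Glyma.06G300100. It was smaller for the cyclin gene Glyma.13G031500 (2.91), the peroxidase gene Glyma.09G022500 (1.99), the PCNA gene Glyma.08G334900 (1.67), the FMN reductase gene Glyma.13G249600 (1.63), the Bet v I gene Glyma.15G274200 (1.54), the 5-alpha-reductase gene Glyma.02G273300 (1.43) and LOXB1 (1.37).

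Among genes called lower, the difference was negative, with the effect of BL lying lower without PPZ than with it, for the EamA transporter gene Glyma.14G151600 (-9.31), the Kunitz gene Glyma.09G163300 (-8.13), the expansin gene Glyma.10G140200 (-5.48), PHT1-14 (-4.99), the lipid transfer gene Glyma.18G033200 (-4.75), the EXORDIUM-like gene Glyma.04G100400 (-2.28), the peroxidase gene Glyma.17G061400 (-2.27), the amino acid permease gene Glyma.10G109500 (-2.06), the P450 gene Glyma.07G010700 (-1.45), the MYB-type gene Glyma.14G093800 (-1.45) and the alcohol dehydrogenase gene Glyma.06G122600 (-0.91). It was positive, a larger fall with PPZ, for the phosphatase gene Glyma.01G225100 (2.97), the oxygenase gene Glyma.08G029200 (1.23) and the CASP-like gene Glyma.17G064800 (1.22). Among genes not called between BL and mock, it was -0.63 for the receptor gene BRI1A (Glyma.06G147600) and -0.56 for BZL2 (Glyma.14G076900) of the BES1/BZR1 family.

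Among the 980 loci of the table that lie outside the annotation, 640 were tested and 78 were called between BL and mock (12.2%), 12 higher and 66 lower after BL. What these loci encode was not given in the sources used here.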

How the results depend on the processing

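None of the 47 named and called genes changed direction under any alternative. Without the fold threshold 7707 genes were called (21.5%), 3895 higher and 3812 lower. When each library was left out in turn, the count lay between 937 and 4643, with 476 to 2888 higher and 461 to 1755 lower. The other settings stayed within 1.5 times the main count, at 3802 (DESeq2), 3669 (all 12 libraries in 1 fit), 3016 (no filter on low counts), 2908 (library size alone), 2871 (median-ratio size factors) and 1996 (a mean of at least 50 counts). With the replicate block 2347 genes were called, 1394 higher and 953 lower, although the correlations between libraries did not show a pairing by number. All 47 named and called genes kept their call under DESeq2, the 12-library fit, both other normalizations, no filter and the replicate block, and all 45 that were tested did so at a mean of at least 50 counts. Most of these genes were chosen by p, fold or level in the same libraries. That they kept call and direction was therefore likely from the start and says little about the other called genes. Without single libraries between 1 and 8 of the 47 lost their call, and the cause was not tested. The called count moved by more than 1.5 times for 27 of 90 families with DESeq2 and for between 28 and 70 when a library was left out. For the interaction, 12716 genes passed, and between 9974 and 15053 with a library left out. The summed CPM of the marker families over tested members alone differed by less than the spread between replicates. Genes with few counts, the spread of the mock libraries and 3 libraries a group limit what could be called.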

Other observations

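The families of the lowered carbohydrate enzymes were looked at after their values had been seen. Of 12 tested genes with the thiamine pyrophosphate domain of pyruvate decarboxylase, the enzyme before alcohol dehydrogenase in ethanol fermentation, 5 were called after BL, all lower, and the family summed to 623 ± 55.0 CPM after BL and 2384 ± 816 CPM in mock (SD, n = 3 each). Glyma.13G231700 had 199, 221 and 171 CPM after BL against 765, 966 and 1681 CPM in mock (edgeR adjusted p = 1.57e-03). Glyma.03G055100 had 4.31, 4.33 and 2.19 CPM after BL against 115, 203 and 182 CPM in mock (edgeR adjusted p = 3.20e-04). Of 45 zinc-type alcohol dehydrogenases 4 were called, all lower, a share of 8.89% against 7.98% for all genes, and 24 members were above 0 with a median log2 fold change of 0.04. The family summed to 2736 ± 92.2 CPM after BL and 9835 ± 2718 CPM in mock, and most of the mock sum came from Glyma.06G122600, with a mean of 5092 CPM, and ADH2 (Glyma.04G240800), with a mean of 3048 CPM. Of 14 sucrose synthase genes 3 were called lower and 1 higher, and the sum was 2600 ± 124 CPM after BL and 7020 ± 880 CPM in mock. Of 15 lactate and malate dehydrogenases only Glyma.01G210400 was called, with 1.504, 1.44 and 1.82 CPM after BL against 27.6, 95.1 and 146 CPM in mock. The globin gene Glyma.11G121800, of a family that binds oxygen, had 863, 985 and 1220 CPM after BL against 1733, 1453 and 1904 CPM in mock and was not called (edgeR adjusted p = 0.0210).

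In the comparison of PPZ plus BL with PPZ, which uses other libraries, Glyma.13G231700 had 87.4, 163 and 227 CPM in PPZ plus BL against 2198, 1776 and 1279 CPM in PPZ (edgeR adjusted p = 3.14e-04). ADH2 (Glyma.04G240800) had 401, 375 and 433 CPM in PPZ plus BL against 2826, 2508 and 1759 CPM in PPZ (edgeR adjusted p = 1.15e-04).

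Over Pfam domains with at least 20 tested genes, 417 in all, the median share called was 7.69%, and 71 domains held no called gene. Pentatricopeptide repeat proteins, which process organelle RNA, had 9 of 607 called (1.48%), and RRM RNA-binding proteins 3 of 384 (0.781%). Bromodomain proteins had 0 of 40 called, and 35 were below 0 on the log2 scale with a median of -0.47, while proteasome subunits had 0 of 37 called and 32 above 0 with a median of 0.51. Callose synthases (1,3-beta-glucan synthase component) had 19 of 22 below 0, 2 called lower and 1 higher. Mitochondrial carriers had 10 of 121 called, all higher, and PMR5-type proteins, some of which acetylate wall polysaccharides, had 10 of 87 called, all higher. With mock replicate 1 left out, mitochondrial carriers had 15 higher and 3 lower, and PMR5-type proteins 17 higher and 1 lower. TPX2-type microtubule proteins had 8 of 26 called, all higher, and class I and II aminotransferases 8 of 46, all lower. The aminotransferases had 1 called higher and 10 lower without mock replicate 1.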
